A study of Mus musculus with 8 samples.

Results

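Aminoacyl-tRNA synthetases are the enzymes that charge each tRNA with its amino acid. The 37 genes described here are 18 enzymes of the cytosol, 16 enzymes of the mitochondria and 3 scaffold proteins, out of 19937 genes measured with a probe set of their own. They were chosen by symbol: names of 1 letter followed by ars, with or without a closing 2, together with Eprs, Farsa, Farsb, Tarsl2, Aimp1, Aimp2 and Eef1e1. Enzymes ending in 2 were taken as mitochondrial, except Tarsl2, a second threonyl-tRNA synthetase of the cytosol, and Aimp2, a scaffold protein. Gars (glycine) and Kars (lysine) each supply both compartments from 1 gene and were counted with the cytosolic enzymes.

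Expression was measured on 1 Affymetrix mouse gene array per sample in 4 MYC-driven liver tumours and in 4 normal livers of matched control mice. Per the labels, the tumours arose under liver-specific overexpression of human c-MYC from a doxycycline-controlled transgene with the CEBPB-LAP promoter, which is active in hepatocytes, and were collected at the humane endpoint. The labels carry the same transgene text for the control livers without saying whether those mice bore it or received doxycycline, and they give no strain, sex or age. They number the samples but do not name the mice. The p-values therefore rest on the spread among the samples as numbered, and that spread may be technical.

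As background, cytosolic synthetases feed the ribosomes that make most cell protein, whereas the mitochondrial set, also encoded in the nucleus and imported, serves the ribosomes that make a few respiratory chain subunits. Several cytosolic enzymes are held in a multi-synthetase complex by the proteins Aimp1, Aimp2 and Eef1e1, and the others act outside it. MYC is known as a transcription factor that binds the E-box CACGTG, and several synthetase genes are known targets of ATF4, the factor of the amino acid response.

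The genes were set beside their promoters, to show which of them carry the letters of these elements just before the start of transcription. Promoters of RefSeq (GRCm38.p6), 250 bases before to 50 after the start, were at hand for 28 of the 37 genes. They were searched for CACGTG, which reads the same on both strands, and for TGATGNAA, the core of the element bound by ATF4 with C/EBP partners, on both strands. The 2 motifs did not overlap each other in the stretches shown. The last 150 bases before the start are given, 5′ to 3′ along the gene, for Eef1e1 (the largest rise), Yars2 (the largest mitochondrial rise) and the 4 genes with a match in that stretch, Gars, Iars, Farsb and Tars. The last 4 were thus picked for their matches, and Aimp2 and Kars, whose changes of 1.69 and 1.38 exceed those of some of them, held neither motif in their windows. Capitals mark a match to either motif.
Eef1e1, chr13:38659029-38659178, minus strand: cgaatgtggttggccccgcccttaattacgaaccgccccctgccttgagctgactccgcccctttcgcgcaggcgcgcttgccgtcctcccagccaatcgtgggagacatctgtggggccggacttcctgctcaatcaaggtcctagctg
Gars, chr6:55037851-55038000, plus strand: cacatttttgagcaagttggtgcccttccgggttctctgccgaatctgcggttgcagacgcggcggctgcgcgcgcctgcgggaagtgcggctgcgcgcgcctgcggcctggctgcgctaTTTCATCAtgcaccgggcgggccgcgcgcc
Iars, chr13:49681980-49682129, plus strand: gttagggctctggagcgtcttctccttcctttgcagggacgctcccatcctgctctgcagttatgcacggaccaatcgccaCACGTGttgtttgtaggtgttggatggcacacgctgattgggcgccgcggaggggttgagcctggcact
Farsb, chr1:78488898-78489047, minus strand: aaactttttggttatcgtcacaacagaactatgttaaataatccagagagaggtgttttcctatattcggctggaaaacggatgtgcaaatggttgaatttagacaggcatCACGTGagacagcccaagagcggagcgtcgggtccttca
Tars, chr15:11399659-11399808, minus strand: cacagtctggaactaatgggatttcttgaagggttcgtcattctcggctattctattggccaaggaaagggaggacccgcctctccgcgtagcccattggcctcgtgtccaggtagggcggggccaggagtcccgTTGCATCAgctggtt
Yars2, chr16:16302815-16302964, plus strand: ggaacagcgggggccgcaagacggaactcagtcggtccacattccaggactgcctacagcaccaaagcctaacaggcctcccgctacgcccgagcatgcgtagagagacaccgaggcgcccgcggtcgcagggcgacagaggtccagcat
CACGTG began 69 bases before the start in Iars and 39 bases before it in Farsb. TGATGNAA lay on the opposite strand in Gars and Tars. The first base of the match along the gene was 30 bases before the start in Gars and 15 bases before it in Tars. Past the start, and so outside the stretches shown, CACGTG lay in Tars and Ears2, and TGATGNAA in Iars and Yars. CACGTG was thus found in 3 of 11 cytosolic enzymes with a promoter and in 1 of 14 mitochondrial ones, against 7.15% of all 32851 promoters in the table. TGATGNAA was found in 4 of the 11 cytosolic enzymes and in none of the 14 mitochondrial ones, against 3.97% of all promoters. Neither motif was found in the windows of the 3 scaffold genes. The enzymes were counted by gene and the background by promoter. Cars, Hars, Hars2, Lars, Nars, Pars2, Rars, Vars and Wars had no promoter at hand and were not searched. A match is a description of letters, and Tars held both motifs.

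The values are log2 signals, in which 1 unit is a 2-fold difference. Signals depend on each gene's probes, so expression was compared between samples and never between genes, and no measure of background came with them. Array medians lay between 6.33 and 6.44. In limma, 28.9% of the 19937 genes passed an adjusted p of 0.05, with 16.2% higher and 12.7% lower in tumours, and the median log2 change was -0.04. Hepatocyte markers checked the tissue label. The mean of Alb, Apoa1, Hnf4a, Trf and Ttr ranged over 11.47 to 11.87 in the tumours and 12.08 to 12.38 in the controls, and all 5 genes were lower in tumours, by a median of 0.52 on the log2 scale. The 3 cycling markers were higher in all tumours, with log2 changes between 3.98 and 5.03. Markers of other liver cells moved in both directions. Of 4 cholangiocyte markers Epcam was higher and Sox9 lower (list means of 6.06 to 6.46 in tumours and 6.08 to 6.21 in controls), and of 5 macrophage markers Cd68 was higher and Clec4f lower (7.16 to 7.49 in tumours and 6.97 to 7.80 in controls). Of 4 endothelial markers 2 were lower (6.68 to 7.24 in tumours and 6.84 to 7.67 in controls), as were 2 of 6 stellate and fibroblast markers (6.49 to 6.74 in tumours and 6.97 to 7.22 in controls). None of 4 T and NK, 2 B or 3 neutrophil markers passed. Their part in the results below was not tested, and in bulk tissue fewer cells of a type and less RNA per cell cannot be told apart.

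Most tRNA synthetase genes were higher in MYC tumours. Of the 37 genes, 25 were higher and none lower, where 16.2% of all genes were higher and 12.7% lower. All 3 scaffold genes and 16 of 18 cytosolic enzymes rose, against 6 of 16 mitochondrial enzymes. The median log2 change was 1.69 for the scaffold genes, 0.82 for the cytosolic enzymes and 0.30 for the mitochondrial enzymes. Probe signal also differed between the sets. The control arrays averaged 8.20 to 8.54 over the cytosolic and 7.01 to 7.15 over the mitochondrial enzymes. Whether weaker signal bears on the size of the changes, here or in pairs of genes, was not tested. Tumours and controls did not overlap for 24 of the 37 genes, where 30.2% of all genes showed no overlap. The tumours were above the controls in 23 of them, as in 16.3% of all genes, and below in 1, Tars, as in 13.9% of all genes.

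**Figure D1:**
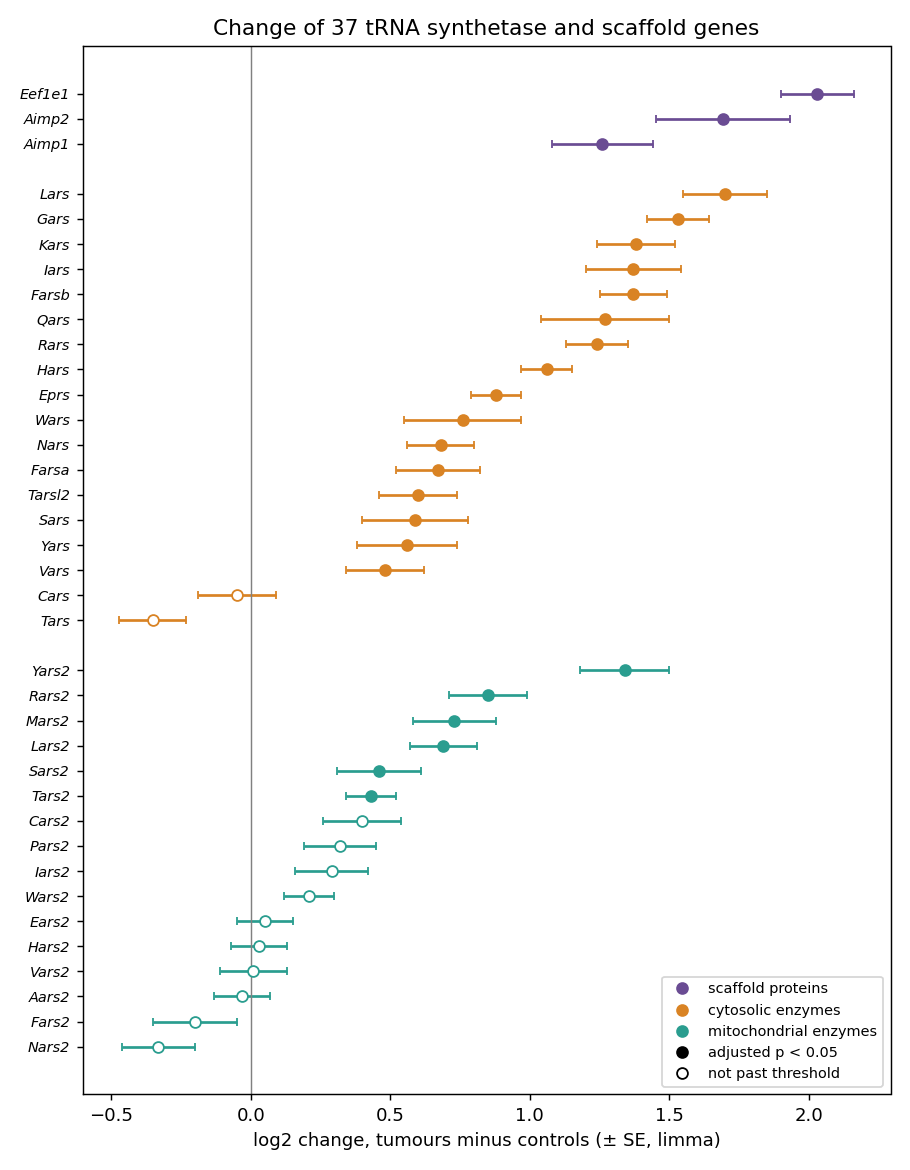
Log2 change, tumours minus controls, with its SE from limma, for the 3 scaffold genes, 18 cytosolic enzymes and 16 mitochondrial enzymes, with filled points for an adjusted p under 0.05 over all genes and open points for the rest. All 25 filled points lie to the right of 0, led by Eef1e1 at 2.03 and ending with Tars2 at 0.43.

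The scaffold proteins of the multi-synthetase complex rose together. Eef1e1, also called AIMP3, which docks methionyl-tRNA synthetase in the complex, read 10.09, 10.08, 10.47 and 9.96 in tumours 1 to 4, against 8.16, 8.28, 8.17 and 7.90 in controls 1 to 4. The lowest tumour lay well above the highest control, and the gene rose 4.07-fold (log2 change 2.03, SE 0.13, limma adjusted p = 1.47e-06). Aimp2, the core scaffold on which other components assemble, read 9.52, 8.96, 9.31 and 8.31 in the tumours, against 7.18, 7.10, 7.40 and 7.65 in the controls. Tumour 4 was the lowest tumour and control 4 the highest control, and the groups still did not overlap (log2 change 1.69, SE 0.24, adjusted p = 0.000325). Aimp1, whose tRNA-binding tail can be released as a secreted cytokine, read 9.55, 9.18, 9.56 and 9.36 in the tumours, against 8.34, 7.59, 8.31 and 8.37 in the controls. Control 2 stood below the other controls, and Aimp1 rose by 1.26 on the log2 scale (SE 0.18, adjusted p = 0.000342).

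The enzymes of the complex rose without exception among the 6 measured under the rule. They were Lars, Kars, Iars, Qars, Rars and Eprs, with log2 changes between 0.88 and 1.70 and a median of 1.32, and their groups did not overlap. Lars, the leucyl-tRNA synthetase, also known as a leucine sensor upstream of mTORC1, read 10.59, 10.72, 10.63 and 10.32 in tumours 1 to 4. In controls 1 to 4 it read 9.06, 8.46, 8.98 and 8.96, so that every tumour was more than a full log2 unit above every control. It rose 3.25-fold (log2 change 1.70, SE 0.15, adjusted p = 1.13e-05). Kars, the lysyl enzyme of both cytosol and mitochondria, read 9.84, 9.57, 9.76 and 9.31 in the tumours, against 8.29, 7.99, 8.41 and 8.26 in the controls. It rose 2.61-fold (log2 change 1.38, SE 0.14, adjusted p = 3.17e-05). Iars, for isoleucine, rose by 1.37 (SE 0.17), and its second probe set, which was not used in the test, differed by 1.54 with all tumours above all controls. Qars, for glutamine, rose by 1.27 (SE 0.23), and Rars, for arginine, by 1.24 (SE 0.11). Eprs, a single protein that charges tRNAs for both glutamate and proline, rose by 0.88 (SE 0.09), reading 11.20, 11.17, 11.17 and 11.09 in the tumours, against 10.35, 10.13, 10.27 and 10.34 in the controls.

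The complex also holds the methionyl enzyme, whose gene is named Mars1 in the annotation and so fell outside the rule. Mars1 read 7.98, 7.97, 7.88 and 7.37 in tumours 1 to 4, against 7.56, 7.53, 7.48 and 8.04 in controls 1 to 4. The groups overlapped, and the gene did not pass (log2 change 0.15, SE 0.17, adjusted p = 0.588).

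Outside the complex, 10 of 12 cytosolic enzymes rose, with a median log2 change of 0.64 over the 12. Whether this median differs from that of the enzymes in the complex was not tested. Gars, the glycyl enzyme of both compartments, read 10.54, 10.72, 10.66 and 10.46 in the tumours, against 9.09, 8.83, 9.13 and 9.23 in the controls. The gap between the groups was about as wide as for Lars, and Gars rose 2.88-fold (log2 change 1.53, SE 0.11, adjusted p = 3.54e-06). Farsb, the beta subunit of phenylalanyl-tRNA synthetase, read 10.71, 10.41, 10.52 and 10.57 in the tumours, against 9.18, 8.99, 9.42 and 9.12 in the controls. It rose 2.59-fold (log2 change 1.37, SE 0.12, adjusted p = 9.37e-06). Its partner Farsa, the catalytic alpha subunit of the same enzyme, rose by 0.67 (SE 0.15), and the difference between the subunits, seen after their values were known, was not tested.

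Hars, for histidine, rose by 1.06 (SE 0.09). The other rises outside the complex were smaller, between 0.48 and 0.76 on the log2 scale. They were Wars, the tryptophanyl enzyme that interferon is known to induce, at 0.76 (SE 0.21), Nars (asparagine), Tarsl2, Sars (serine), Yars (tyrosine) and Vars (valine). For Sars and Yars the groups overlapped, with tumour 4 below control 4. The calls of Sars and Yars were each lost without control 1, 2 or 3 or without tumour 1, 2 or 3 (adjusted p between 0.0591 and 0.105 for Sars and between 0.0791 and 0.107 for Yars). For Vars the call was lost when any of controls 2 and 3 and tumours 1 and 3 was left out (0.0524 to 0.0657).

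Tars and Cars were the cytosolic enzymes that did not pass. Tars, the main threonyl enzyme of the cytosol, read 9.77, 9.64, 9.51 and 9.26 in tumours 1 to 4, against 9.81, 9.94, 9.80 and 10.02 in controls 1 to 4. Every tumour was below every control, though tumour 1 only just, and the change of -0.35 (SE 0.12) missed the threshold (adjusted p = 0.0581). It passed with quantile normalisation (-0.43, adjusted p = 0.0120), with the dimmest genes left out (0.0452) and without tumour 1 (0.0329). Tarsl2, its relative for the same amino acid, rose by 0.60 (SE 0.14). Cars, for cysteine, read between 7.14 and 7.64 in the tumours and between 7.27 and 7.69 in the controls, which overlapped throughout (log2 change -0.05, SE 0.14, adjusted p = 0.856). The alanyl enzyme Aars shares its probe set with the exosome gene Exosc6 and was not tested. That probe set read 7.47, 7.59, 7.42 and 6.81 in the tumours, against 8.15, 7.82, 7.86 and 8.41 in the controls, a difference of -0.74 that cannot be assigned to either gene.

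**Figure D2:**
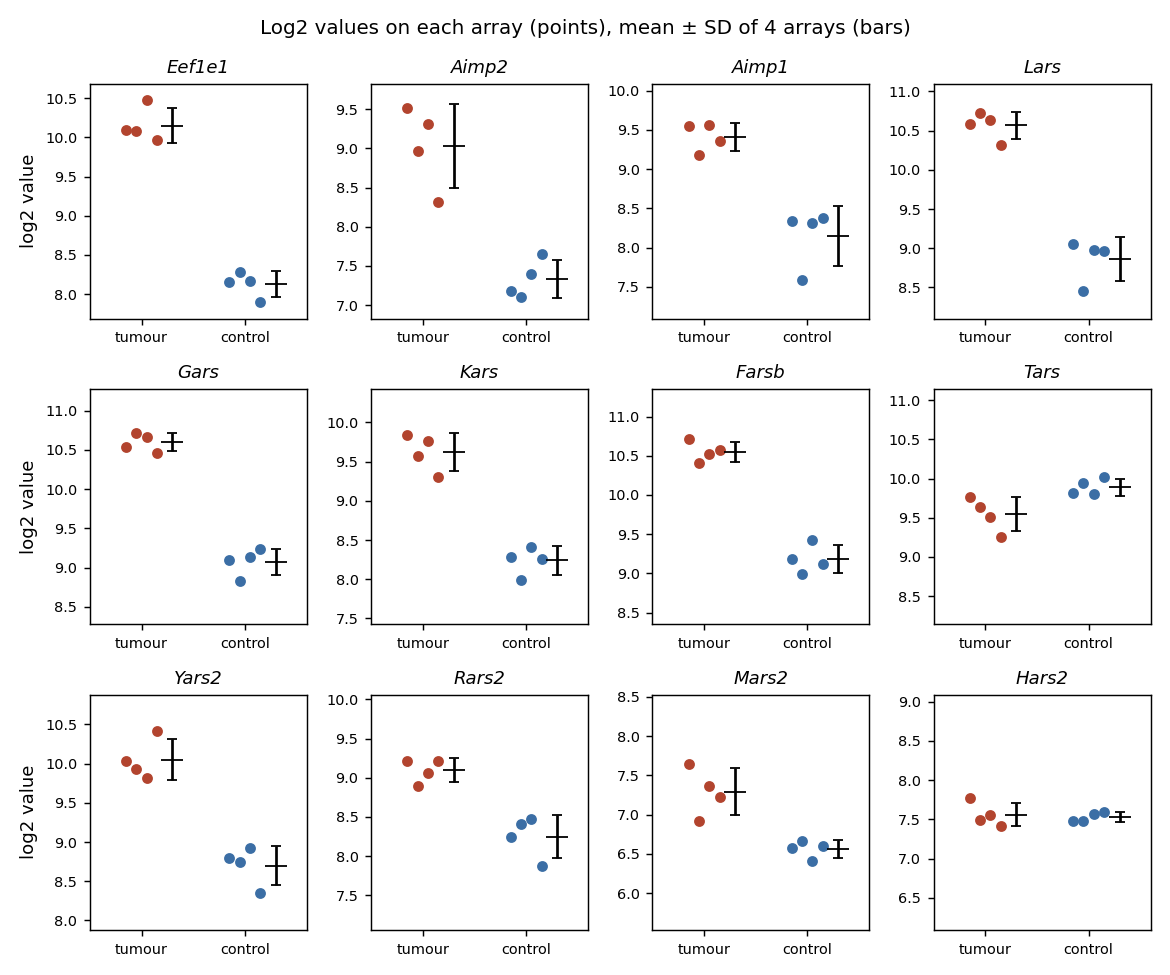
Log2 values of 12 genes on each array, tumours on the left and controls on the right of each panel, with the mean ± SD of 4 arrays beside the points and every panel spanning 3 log2 units. The groups are apart for Eef1e1, Aimp2, Aimp1, Lars, Gars, Kars, Farsb, Yars2, Rars2 and Mars2 with the tumours above, for Tars with the tumours below, and overlap for Hars2.

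Among the mitochondrial enzymes, 6 of 16 rose: Yars2, Rars2, Mars2, Lars2, Sars2 and Tars2. Yars2, the tyrosyl enzyme, read 10.03, 9.93, 9.82 and 10.41 in tumours 1 to 4, against 8.80, 8.74, 8.92 and 8.35 in controls 1 to 4. Its rise was the largest of the 6, at 2.54-fold (log2 change 1.34, SE 0.16, adjusted p = 9.29e-05), while the others rose by at most 0.85. Rars2, the arginyl enzyme, read 9.21, 8.90, 9.06 and 9.21 in the tumours, against 8.24, 8.41, 8.47 and 7.87 in the controls (log2 change 0.85, SE 0.14, adjusted p = 0.00102). Mars2, the methionyl enzyme, read 7.65, 6.92, 7.36 and 7.23 in the tumours, against 6.58, 6.66, 6.41 and 6.60 in the controls (log2 change 0.73, SE 0.15, adjusted p = 0.00331). For both genes the lowest tumour stayed above the highest control. Lars2, for leucine, rose by 0.69 (SE 0.12). Tars2, for threonine, rose by 0.43 (SE 0.09), with tumours between 7.40 and 7.44 and controls between 6.84 and 7.11. Sars2, for serine, rose by 0.46 (SE 0.15) with overlapping groups, a call lost on leaving out any of controls 1 and 3 and tumours 1, 3 and 4 (0.0790 to 0.0970).

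The other 10 mitochondrial enzymes did not pass. Cars2 had a log2 change of 0.40 (SE 0.14, adjusted p = 0.0566), Pars2 (proline) 0.32 (SE 0.13), Iars2 0.29 (SE 0.13) and Nars2 -0.33 (SE 0.13, adjusted p = 0.0784). The Nars2 change passed without control 3 (-0.46, adjusted p = 0.00713). For Wars2 the change was only 0.21 (SE 0.09), yet all tumours, at 6.94 to 7.08, lay above all controls, at 6.72 to 6.92. The changes of Ears2, Hars2, Vars2 and Aars2 lay between -0.03 and 0.05 with SE of 0.10 to 0.12, and that of Fars2 was -0.20 (SE 0.15). Mitochondria have no glutaminyl-tRNA synthetase of their own. Ears2 charges that tRNA with glutamate, and an amidotransferase of Qrsl1, Gatb and Gatc then converts it. Of these subunits Gatc rose by 0.38 (SE 0.10), while Qrsl1 (0.16, SE 0.13) and Gatb (-0.26, SE 0.11) did not pass.

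Because a gene past the threshold and a gene short of it need not differ, the change of each cytosolic gene was set against that of the mitochondrial gene for the same amino acid. There were 14 such pairs, in which Eprs stood for both glutamate and proline and Farsa for phenylalanine. For threonine, Tars was used and not Tarsl2. For each array the mitochondrial log2 value was subtracted from the cytosolic one, and tumours were compared with controls by a two-sided exact permutation test. With 4 arrays against 4 its smallest p is 0.0286, which 10 of the 14 pairs reached, and these had an exact permutation p of 0.0400 after Benjamini-Hochberg adjustment over the 14 pairs. In 8 of the 10 pairs the cytosolic gene changed more, and in the pairs of tyrosine and threonine the mitochondrial gene did.

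The pair for isoleucine showed the largest difference. Iars read 11.18, 11.04, 11.05 and 10.61 in the tumours, against 9.45, 9.34, 9.55 and 10.06 in the controls, while Iars2 read 8.38, 8.46, 8.69 and 8.11 in the tumours, against 7.99, 8.09, 8.14 and 8.28 in the controls. The changes differed by 1.08 (SE 0.14). For histidine, Hars read 9.30, 9.10, 9.11 and 9.10 in the tumours, against 8.13, 8.09, 7.98 and 8.19 in the controls, whereas Hars2 read 7.42 to 7.77 in the tumours, against 7.48 to 7.59 in the controls. The difference of 1.03 had the smallest error of all pairs (SE 0.06), and the groups were apart for Hars and overlapped for Hars2. The other pairs with a larger cytosolic change were asparagine (1.01, SE 0.16), leucine (1.01, SE 0.20), phenylalanine (0.87, SE 0.07), glutamate (0.83, SE 0.11), proline (0.57, SE 0.16) and tryptophan (0.55, SE 0.26). The tryptophan difference was 0.33 without control 2.

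Threonine and tyrosine ran the other way. Tars2 rose while Tars had a change below 0 short of the threshold, a difference of -0.78 (SE 0.12). The threonine result rests on the choice of Tars. Tarsl2, the other cytosolic gene, rose by 0.60 where Tars2 rose by 0.43, and that pair was not tested. Yars2 rose more than Yars, also with a difference of -0.78 (SE 0.37), which was -0.47 without tumour 4. In tumour 4, Yars was the lowest of the tumours at 7.47 and Yars2 the highest at 10.41. The pairs of valine (0.47, SE 0.21) and arginine (0.39, SE 0.13) had an exact permutation p of 0.0571 before adjustment and 0.0667 after it. Cysteine (-0.45, SE 0.17, exact permutation p = 0.0857, adjusted 0.0923) and serine (0.13, SE 0.28, exact permutation p = 0.657, adjusted 0.657) did not pass either, and the serine difference was smaller than its SE. It was -0.01 without control 2 and without tumour 2, 0.06 without control 3, 0.08 without tumour 1, 0.21 without control 4, 0.25 without control 1 and 0.31 without tumour 4. For methionine, outside these pairs since Mars1 is outside the rule, Mars2 rose and Mars1 did not pass, and their difference was not tested.

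**Figure D3:**
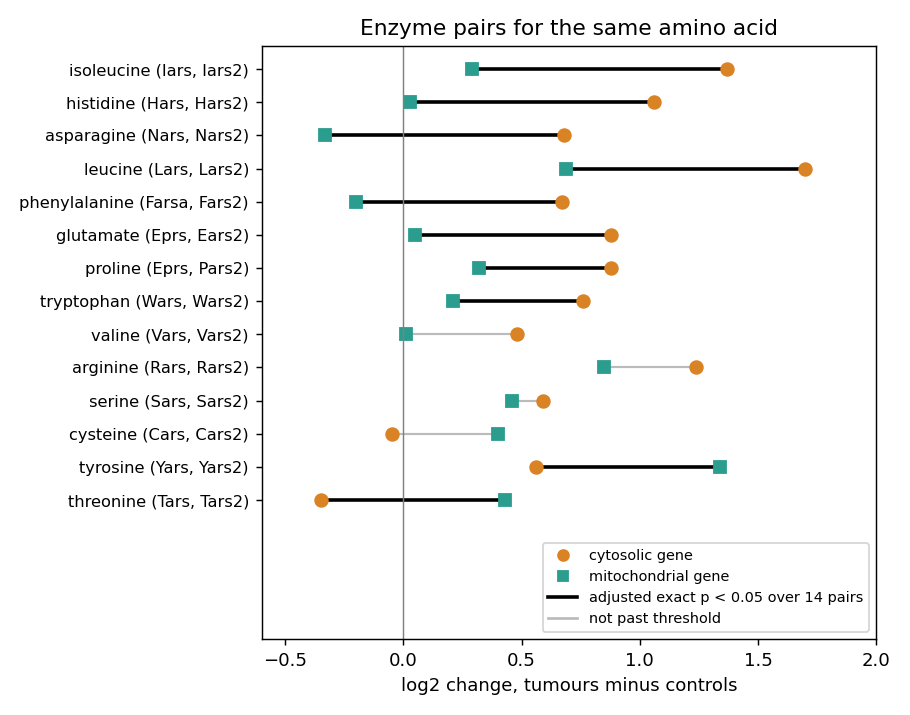
Log2 change, tumours minus controls, of the cytosolic gene (circle) and the mitochondrial gene (square) for each of 14 amino acids, ordered by their difference, where thick black lines mark the 10 pairs past an adjusted exact permutation p under 0.05. The circle lies to the right in 11 pairs, and to the left for cysteine, tyrosine and threonine.

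Synthetases fall into 2 unrelated structural classes, and the rises of cytosolic genes were not limited to either. Of 8 cytosolic genes of class I, 7 rose, with a median of 1.00, and of 9 of class II, 8 rose, with a median of 0.68, with Eprs holding a domain of each. Among mitochondrial genes 4 of 9 of class I rose, with a median of 0.40, and 2 of 7 of class II, with a median of 0.03. Of all genes 16.2% were higher. The 2 of class II were Sars2 and Tars2, and the Sars2 call was lost in 6 of 15 alternatives. These medians were not tested against each other.

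The tumours did not carry the rise equally. Relative to the mean of the controls, the mean log2 value of the 18 cytosolic enzymes was higher by 1.05 in tumour 1, 0.87 in tumour 2, 0.93 in tumour 3 and 0.65 in tumour 4. Tumour 4 was the lowest tumour for 14 of the 18 cytosolic enzymes, or 77.8%, where it was the lowest for 24.5% of all genes. Among controls, control 2 was the lowest for 12 of the 18, or 66.7%, against 21.4% of all genes. Both arrays also stood out over all genes, though in the other direction. Tumour 4 was the highest tumour for 42.4% of all genes and control 2 the highest control for 31.7%, the largest share in each group. Among the 16 mitochondrial enzymes, tumours 2 and 4 were each the lowest tumour for 6, and control 1 was the lowest control for 8, against 27.0% of all genes. The highest arrays were the same in both sets. Tumour 1 was the highest tumour for 61.1% of the cytosolic and 56.2% of the mitochondrial enzymes, against 21.8% of all genes, and control 4 was the highest control for 9 of 18 cytosolic and 8 of 16 mitochondrial enzymes, against 22.6% of all genes. Without tumour 4 the cytosolic enzymes that rose were again 16 and the mitochondrial ones 7, and the median change outside the complex was 0.76.

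**Figure D4:**
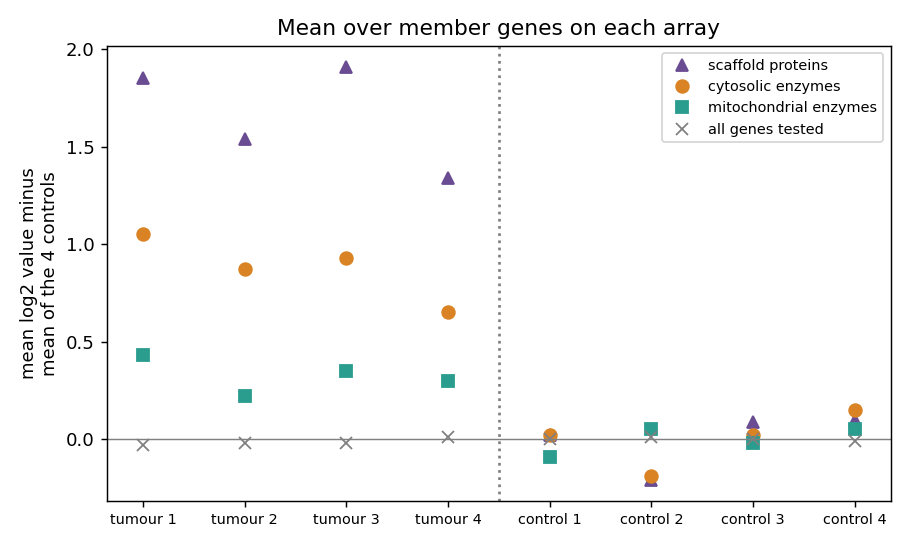
Mean log2 value over the 3 scaffold genes, 18 cytosolic enzymes, 16 mitochondrial enzymes and all 19937 genes on each array, minus the mean of the 4 controls, with tumours left of the dotted line. Cytosolic enzymes lie at 0.65 to 1.05 in tumours and at -0.19 to 0.15 in controls, and mitochondrial enzymes at 0.22 to 0.43 in tumours and at -0.09 to 0.05 in controls.

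Genes that act before and after the synthetases were counted by list, again beside 16.2% of all genes higher and 12.7% lower. Of 59 genes of tRNA processing and modification, 36 rose and 2 fell, with a median log2 change of 0.61. Pus7, a pseudouridine synthase, read 8.77, 8.83, 8.60 and 8.82 in the tumours, against 6.62, 6.59, 6.79 and 6.54 in the controls, and rose 4.34-fold (log2 change 2.12, SE 0.10). Trnt1, which adds the CCA end to which amino acids are attached, rose 2.92-fold (1.55, SE 0.10), and Qtrt1, of queuosine synthesis, 2.88-fold (1.52, SE 0.21). Elp4 and Osgepl1 fell by 0.83 and 0.42 on the log2 scale.

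RNA polymerase III, which transcribes tRNA genes, and its factors numbered 21 genes, of which 11 rose and Crcp fell, with a median of 0.37. Gtf3a rose by 1.06 (SE 0.11), the subunit Polr3d by 0.91 (SE 0.13) and the initiation factor Bdp1 by 0.82 (SE 0.11). Of 11 genes of cytosolic elongation and termination, 9 rose and none fell, with a median of 0.78. The rises included Eef2k, the kinase that inhibits the elongation factor eEF2, at 0.78 (SE 0.12), and the release factor genes Etf1, Gspt1 and Gspt2. The largest changes were those of Eif5a at 1.37 (SE 0.18), and of Eef1d and Eef1b2, both of the exchange factor of the tRNA carrier eEF1A, at 1.16 (SE 0.15) and 1.14 (SE 0.10).

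Factors of mitochondrial translation and the amidotransferase showed 4 rises among 14 genes and none fell, with a median of 0.20. The rises were those of Guf1 (1.02, SE 0.13), a ribosome-binding GTPase, Tufm (0.71, SE 0.24, adjusted p = 0.0490), the mitochondrial elongation factor Tu, Mrrf (0.49, SE 0.12), the ribosome recycling factor, and Gatc. For Tufm the groups overlapped, and the call was lost on leaving out any of controls 1 to 3 and tumours 1 and 3 (0.0918 to 0.125). Of 11 genes that edit mischarged tRNA or serve selenocysteine, 5 rose and 2 fell. Dtd1, which removes D-amino acids from tRNA, rose by 1.24 (SE 0.12), and Sephs1 by 0.83 (SE 0.19). Prorsd1, whose relatives in bacteria clear mischarged prolyl-tRNA, fell by 0.91 (SE 0.15), and Sepsecs, which makes selenocysteinyl-tRNA, fell by 0.61 (SE 0.14).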

How the data were processed

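RNA of 4 tumours and 4 control livers was hybridised to 1 array each. The deposited table holds log2 values per probe set, made by the authors with RMA and R 3.0.2, per the submitters' processing notes. The sources used here do not give its settings or the genome build. Of 34760 probe sets, 21640 had 1 gene symbol in the platform annotation, 1321 had several and 11799 had none. The probe set with the highest mean was kept per gene, leaving 19937 genes. Tumours were compared with controls in limma 3.58.1 (lmFit and eBayes, group only) in R 4.3.3, with Benjamini-Hochberg adjustment over all genes and a threshold of 0.05. The fit was tested on simulated data with noise drawn independently for each gene and array. That noise lacks shifts shared by many genes on an array, so the simulation checks the computation alone. Pair differences were tested with scipy 1.17.1, tables were made with pandas 2.3.3 and plots with matplotlib 3.10.9. Errors are SD of 4 arrays for levels, SE from limma for changes, and for pair differences SE from the spread within groups. The number of arrays limits the precision.

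The members, the lists of other genes, the motifs and the tests were chosen with earlier results of these data known. Values on every array are given for the largest changes past the threshold (4 cytosolic and 3 mitochondrial enzymes), all scaffold genes and the most different pairs, and up to 3 genes are named per list. Eprs, Mars1, Tars and Pus7 are shown in the same detail because of their values or names, a choice made after these were seen, as were the other genes named beyond those. Promoters were matched by gene identifier. Alternatives were quantile normalisation, subtraction of array medians, leaving out the dimmest tertile of genes, array weights, an intensity trend together with robust variance estimates, a block for the replicate number, averaging the probe sets of a gene, and leaving out each array in turn. No batch is named in the labels.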

Additional observations from a re-analysis of the deposited data

Results flagged for a closer look

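In each gene's 4 tumours and 4 controls, 74 groups in all, an array was marked when it lay far from the other 3 for the spread of its group (above Dixon's critical value). Chance alone marks about 1 in 20 groups, and 3 were marked. Hars read 9.30 in tumour 1, against 9.10 to 9.11 in the other tumours. Lars read 8.46 in control 2, against 8.96 to 9.06 in the other controls. Aimp1 read 7.59 in control 2, against 8.31 to 8.37 in the other controls. All 3 genes passed with each array left out.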

How the results depend on the processing

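Deviations of same-numbered tumours and controls correlated at -0.057, 0.005, 0.055 and -0.32 across genes. These values gave no sign that the replicate numbers pair the samples. Differently numbered tumours and controls correlated from -0.216 (tumour 1 with control 2) to 0.309 (tumour 4 with control 2). Tumour 1 and control 4 stood at 0.307. What these arrays share was not tested. With the replicate block, 5007 of all genes passed against 5757 without it, 14 cytosolic and 5 mitochondrial enzymes were higher, and the calls of Sars (adjusted p = 0.0844), Yars (0.0811), Sars2 (0.0624), Tufm (0.0720) and Mrrf (0.0519) were among those lost. Over the 5 related lists together the block left 51 higher genes, against 65 without it, and the alternatives gave 51 to 71 higher and 4 to 6 lower. Of the 25 genes that rose, 21 kept the call in all 15 alternatives, and Vars, Sars, Yars and Sars2 did not. Over the alternatives, 13 to 16 cytosolic and 5 to 8 mitochondrial enzymes were higher, and the 3 scaffold genes and the 6 enzymes of the complex always were. In the 12 settings that give array values, 10 or 11 pairs did not overlap. Most of these settings could not lower that count. Leaving out an array cannot make separated groups overlap. Subtracting array medians or leaving out the dimmest genes keeps each pair's differences, and averaging probe sets altered only the isoleucine pair. With quantile normalisation, which could lower the count, it was 10. Subtracting array medians ended the calls of Sars (0.0541), Yars (0.0540) and Tufm (0.0682), and the Tufm call was also lost with quantile normalisation (0.0522) and with the intensity trend (0.0502). A lower call appeared for 1 cytosolic enzyme, Tars, with quantile normalisation, with the dimmest genes left out, and without tumour 1, and for 1 mitochondrial enzyme, Nars2, with quantile normalisation and without control 3, so that leaving out an array gave 0 to 1 lower enzymes in the cytosolic set (also outside the complex) and 0 to 1 in the mitochondrial set. Leaving out an array moved the median outside the complex over 0.56 to 0.76. Iars2, Cars2 and Pars2 passed as higher in some settings. Causes were not tested. The median change of all genes stayed between -0.07 and 0.01.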
